A study of Mus musculus with 6 samples.

Results

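The 34 genes described here encode the glucose transporters, the enzymes of glycolysis, the lactate transporters, and the pyruvate dehydrogenase that oxidises pyruvate in the mitochondria with the kinases that inhibit it. They were taken by symbol, using for each symbol its most abundant transcript row by mean over the 6 columns, and all 34 were present among the 22098 gene symbols of the table. Of these, 31 passed the filter on low values and were tested among 11379 genes. They were read in pro-B acute lymphoblastic leukaemia cells of the mouse, obtained by retroviral transduction of whole C57BL/6 bone marrow with BCR-ABL p185, the fusion kinase of Philadelphia chromosome-positive leukaemia, joined through an IRES to YFP. Cells of the genotypes Ikaros_ZnF4-/- and Ikaros_ZnF1-/-, called ZnF4-/- and ZnF1-/- cells, have the DNA-binding zinc finger of that name removed from Ikaros, a lymphoid transcription factor and tumour suppressor. Wild type cells carry the same oncogene and intact Ikaros. Each of the 3 genotypes gave 1 poly(A) RNA library at day 21 and 1 at day 28 of culture, so n = 2 per genotype. The labels do not say whether the days came from separate cultures, how many mice gave marrow, or whether YFP-positive cells were sorted.

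Cells take up glucose through facilitative transporters, trap it as glucose 6-phosphate with a hexokinase, and commit it to glycolysis at the phosphofructokinase step. The lower enzymes turn the resulting triose phosphates into pyruvate, which lactate dehydrogenase reduces to lactate for export or the pyruvate dehydrogenase complex converts to acetyl-CoA. Many steps have several isoenzymes from separate genes, and hypoxia-inducible factors and Myc are known to raise many of these genes in growing lymphoid cells.

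Levels are RPKM, a read density per transcript base relative to the size of the library, as deposited, in the order day 21 then day 28 for each genotype. Differences were taken between values of log2(RPKM + 1), a scale that understates the change of low genes, and are given with their standard error. "Called" means a Benjamini-Hochberg adjusted p below 0.05 in a limma fit of genotype and day to all 6 libraries and all 11379 tested genes. Each library was also left out singly and the fit repeated, so "without either wild type library" means that leaving out the one or the other ended the call. With day in the fit, a shift between the days that all genotypes share is taken out. The p-values thus rest on how much the genotype differences varied between the 2 days, moderated over all tested genes. The 2 days may be technical repeats of 1 culture.

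The read depth is unknown, and 10401 to 11233 symbols reached 1 RPKM in a library. All 14 markers of pro-B and pre-B cells were present, and their summed RPKM lay between 3713.1 and 4075.4 in the 6 libraries. Single markers differed under that sum. Against wild type, 4 were called higher and 1 lower in ZnF4-/- cells. In ZnF1-/- cells 3 were called higher (Rag1, Rag2 and Il7r) and 0 lower. The ZnF4-/- calls, and that of Rag1 in ZnF1-/- cells, were each lost when some library was left out. Ikzf1 itself had 186 and 165.9 RPKM in ZnF4-/- cells, 108 and 91.4 in ZnF1-/- cells and 89.2 and 78.7 in wild type, values over whole transcripts that cannot check the loss of 1 finger. The 16 macrophage and monocyte markers summed to 189.5 and 250.4 RPKM in ZnF4-/- cells, 1739.4 and 1656 in ZnF1-/- cells and 460.9 and 285.3 in wild type. Against wild type, 0 of their 14 tested genes were higher in ZnF4-/- cells and 6 were lower, while 13 were higher in ZnF1-/- cells and 0 lower. With each library left out in turn, 0 of the 6 and 10 of the 13 were called every time. The 2 untested ones, Cd163 and Lyz1, stayed at or below 0.6 RPKM. The 13 stromal and endothelial markers summed to 33.6 and 32.1 RPKM in ZnF4-/- cells, 206.7 and 195.9 in ZnF1-/- cells and 64.8 and 52 in wild type. Of 21 proliferation genes, 2 were higher in ZnF4-/- cells and 0 lower (median 0.21), beside 18.2% of all tested genes called in either direction, and 0 of the 2 were called in every left-out fit. In ZnF1-/- cells 0 were higher and 20 lower (median -0.52), beside 38.1% of all tested genes called, and 1 of the 20 was called in every left-out fit. Their summed RPKM was 2508.2 and 2381.1 in ZnF4-/- cells, 1469.9 and 1511.4 in ZnF1-/- cells and 2151.2 and 2120.8 in wild type. The part of these lists in the results below was not tested. In RNA from a mixed culture, fewer cells of a type and less RNA per cell cannot be told apart.

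The summed level of the 34 genes was highest in ZnF4-/- cells and lowest in ZnF1-/- cells. Their summed RPKM was 1328.9 and 1242.9 in ZnF4-/- cells, 710.1 and 767.4 in ZnF1-/- cells and 891.5 and 942 in wild type. As a share of all RPKM in a library this was 0.460% and 0.419% in ZnF4-/- cells, 0.258% and 0.261% in ZnF1-/- cells and 0.314% and 0.323% in wild type. The 3 genotypes did not overlap in either measure, which was not tested and rests mostly on the abundant Ldha, Aldoa, Pkm2 and Tpi1. These genes share part of their sequence with other genes, so their levels are uncertain, as described below.

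In ZnF4-/- cells against wild type, 17 of the 31 tested genes were called, 14 higher and 3 lower, with a median difference of 0.25. Of all tested genes 18.2% were called, 10.9% higher and 7.32% lower, with a median of 0.02. The genes that rose were Slc2a1, Hk2, Pfkl, Pfkm, Pfkp, Pfkfb4, Aldoa, Aldoc, Tpi1, Pgk1, Eno3, Pkm2, Ldha and Slc16a3, and those that fell were Slc2a6, Pfkfb3 and Slc16a1. With each library left out in turn, the calls of Pfkl and Aldoc were made every time and the other 15 were lost at least once, and between 2 and 11 of the genes were called. The fewest, 2, were called without either wild type library. Without the filter on low values 10 were called, and Pfkm, Pfkfb3, Pfkfb4, Tpi1, Ldha, Slc16a1 and Slc16a3 were not (adjusted p as high as 0.0913).

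In ZnF1-/- cells against wild type, 17 of 31 were called as well, 10 higher and 7 lower, with a median difference of -0.06. Quantile scaling of the libraries moved this split to 7 higher and 11 lower. Of all tested genes 38.1% were called, 22.9% higher and 15.2% lower, with a median of -0.02. The genes that rose were Slc2a6, Slc2a8, Hk3, Pfkm, Pfkfb4, Aldoc, Eno2, Eno3, Pdk2 and Pdk4, and those that fell were Pfkl, Pfkp, Tpi1, Pkm2, Ldha, Slc16a1 and Pdk1. Eno2 and Pdk4 reached 1 RPKM in the ZnF1-/- libraries alone, so the filter fixed their difference. Without such genes 15 of 28 were called, 8 higher and 7 lower. Pdk2 stays among the 8, although only 1 library outside ZnF1-/- cells reached 1 RPKM, so it too needed the ZnF1-/- libraries to pass. Of these 15, the calls of Hk3, Pfkfb4 and Pdk2 were made with each library left out in turn, and the other 12 were lost at least once. Between 5 and 19 of the 31 genes were then called, with 5 to 9 when a ZnF1-/- or a wild type library was missing. Without the filter Eno3, Slc16a1 and Pdk1 lost their calls (adjusted p as high as 0.0715).

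Set directly against each other, the mutants differed at 23 of 31 genes, 15 higher and 8 lower in ZnF4-/- cells, with a median difference of 0.25. The share called among all tested genes was 45.5%, with 22.3% higher, 23.2% lower and a median of 0.03. Eno2 and Pdk4 are again among the lower ones, and without genes that passed the filter through 1 genotype 21 of 28 were called, 15 higher and 6 lower. Pdk2 stays among the 6, although it too needed the ZnF1-/- libraries to pass. Of these 21 calls, 14 were made with each library left out in turn, and those of Slc2a8, Gpi1, Pfkfb3, Pfkfb4, Eno3, Pdk1 and Pdha1 were not. The comparisons share libraries, so their calls are not independent. In 7 genes (Hk2, Pfkl, Pfkp, Tpi1, Pkm2, Ldha and Pdha1) both ZnF4-/- libraries lay above both wild type libraries, which lay above both ZnF1-/- libraries. That order was met by 9.83% of all tested genes. The opposite order was met by 1 of the genes, Slc2a6, and by 8.99% of all tested genes. Called higher in ZnF4-/- cells and lower in ZnF1-/- cells, each against wild type, were 5 of the genes (Pfkl, Pfkp, Tpi1, Pkm2 and Ldha) and 1.41% of all tested genes. The reverse held for 1, Slc2a6, and for 2.07% of all tested genes. Between day 28 and day 21, limma called 0 of the 31 genes and 0% of all tested genes. At an unadjusted p below 0.05 there were 3 such genes among the 31 and 1631 among all.

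**Figure D1:**
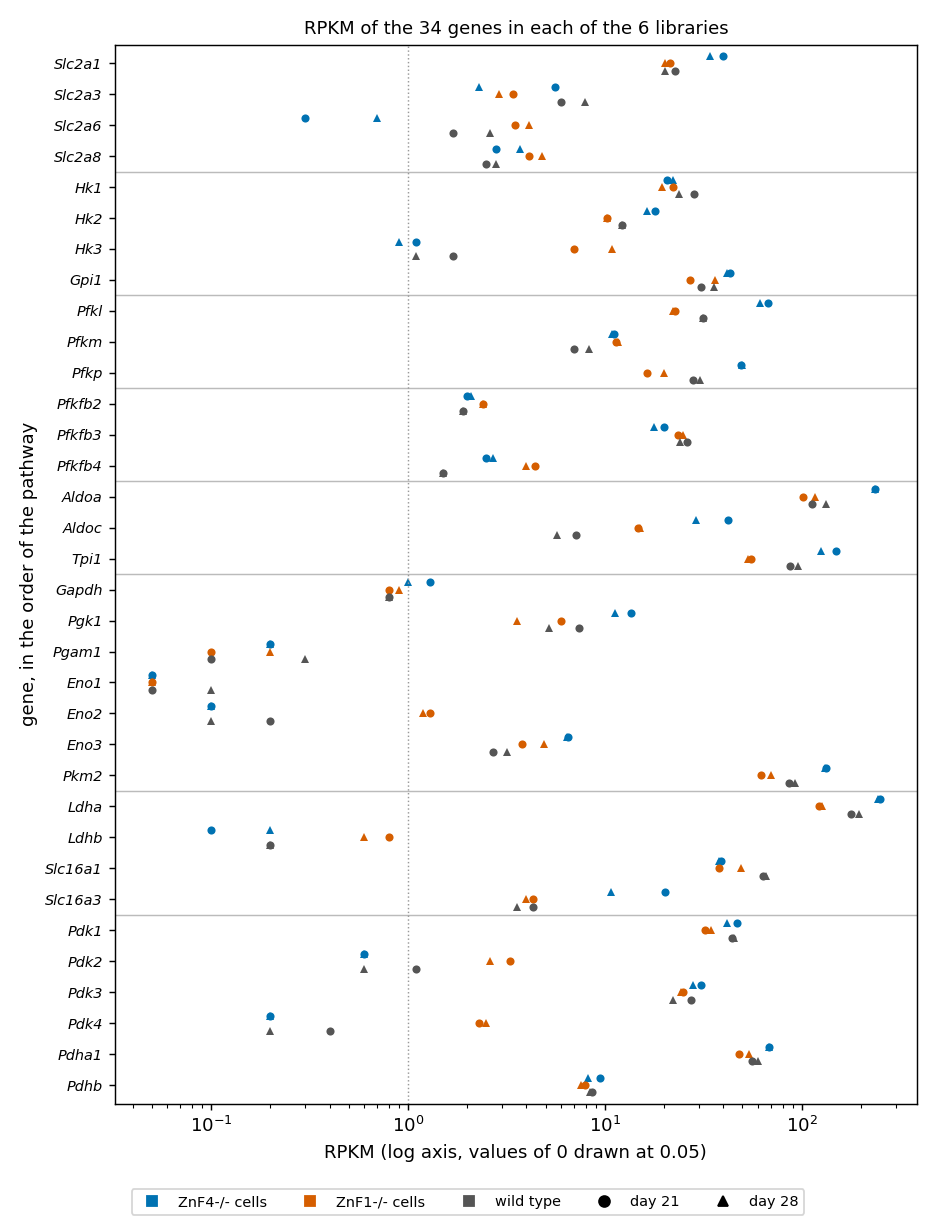
RPKM of each of the 34 genes (vertical axis, in pathway order, lines between roles) in each library (horizontal axis, log scale), coloured by genotype, with circles for day 21 and triangles for day 28. The ZnF4-/- libraries lie to the right at Pfkl (67.1 and 61.3 RPKM) and Aldoc (42.2 and 29.1), and the ZnF1-/- libraries at Hk3 (7.0 and 10.9) and Pdk4 (2.3 and 2.5).

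**Figure D2:**
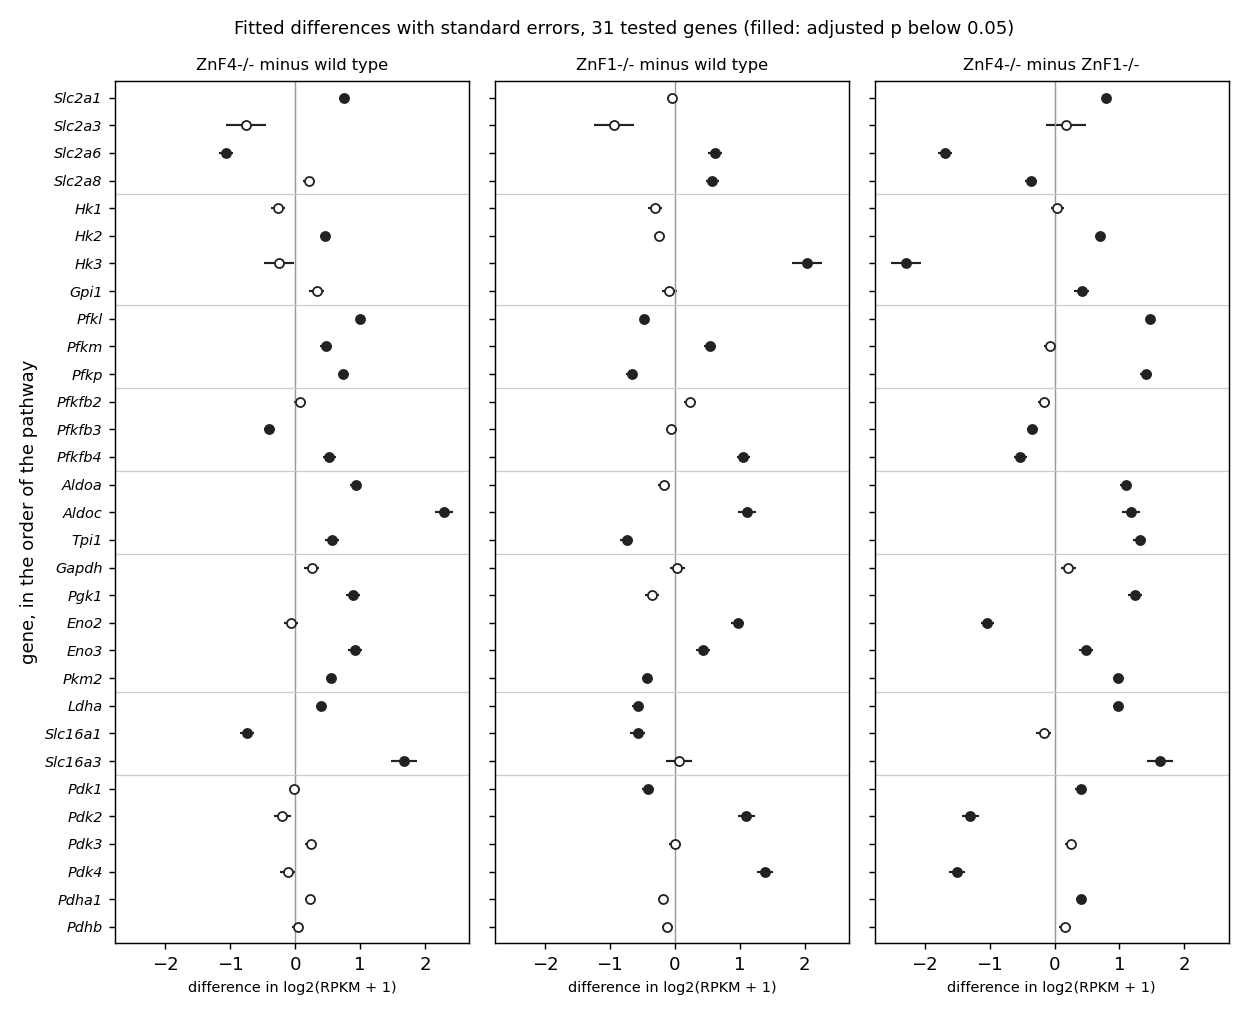
Fitted difference in log2(RPKM + 1) with its standard error for the 31 tested genes, in 3 panels for ZnF4-/- cells minus wild type, ZnF1-/- cells minus wild type, and ZnF4-/- cells minus ZnF1-/- cells. Filled points are called, 17, 17 and 23 of them from left to right.

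Promoters of 4 of the genes are printed to show what sequence surrounds their starts. Pfkl and Aldoc are the genes whose rise in ZnF4-/- cells was called in every left-out fit, Pfkfb4 has the smallest adjusted p of the genes higher in ZnF1-/- cells that passed the filter through more than 1 genotype, and Slc16a1 was lower in both mutants. The sequences are from RefSeq on GRCm38.p6, 250 bases before to 50 after the start, on the gene's strand and 5′ to 3′. They lie at chr10:78009758-78010057 (minus strand) for Pfkl, chr11:78323948-78324247 (plus) for Aldoc, chr9:108991652-108991951 (plus) for Pfkfb4 and chr3:104638414-104638713 (plus) for Slc16a1. Capitals mark ACGTG and GCGTG, the cores bound by hypoxia-inducible factors, and CACGTG, the E-box of the Myc family, on either strand. All motifs were searched on both strands.
Pfkl: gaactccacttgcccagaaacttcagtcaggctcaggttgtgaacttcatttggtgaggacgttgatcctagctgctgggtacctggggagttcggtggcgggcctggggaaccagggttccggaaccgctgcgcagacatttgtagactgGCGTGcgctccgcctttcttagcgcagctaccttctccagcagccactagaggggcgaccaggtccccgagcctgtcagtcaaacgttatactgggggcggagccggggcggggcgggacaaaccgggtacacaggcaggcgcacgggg
Aldoc: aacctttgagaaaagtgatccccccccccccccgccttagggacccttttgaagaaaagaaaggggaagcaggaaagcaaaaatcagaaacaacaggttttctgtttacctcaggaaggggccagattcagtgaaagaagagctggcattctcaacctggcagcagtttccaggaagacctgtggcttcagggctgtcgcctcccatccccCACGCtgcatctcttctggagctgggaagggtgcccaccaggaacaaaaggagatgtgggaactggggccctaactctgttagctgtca
Pfkfb4: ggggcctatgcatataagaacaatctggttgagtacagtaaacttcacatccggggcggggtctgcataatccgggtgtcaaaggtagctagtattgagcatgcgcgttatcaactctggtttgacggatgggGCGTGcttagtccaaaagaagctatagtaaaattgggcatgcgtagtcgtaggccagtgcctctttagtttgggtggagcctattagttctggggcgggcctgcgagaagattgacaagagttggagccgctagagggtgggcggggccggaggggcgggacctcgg
Slc16a1: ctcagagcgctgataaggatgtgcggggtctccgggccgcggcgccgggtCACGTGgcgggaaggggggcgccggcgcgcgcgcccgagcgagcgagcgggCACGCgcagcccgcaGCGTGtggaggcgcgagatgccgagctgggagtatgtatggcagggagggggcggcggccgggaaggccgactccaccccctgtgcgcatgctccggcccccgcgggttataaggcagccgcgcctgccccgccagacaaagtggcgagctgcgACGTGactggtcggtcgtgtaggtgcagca
Pfkl, Aldoc and Pfkfb4 each hold 1 core, while Slc16a1 holds 5, since CACGTG contains ACGTG on both strands. For each of the 34 genes only the promoter nearest its transcript start was counted, which for Pfkfb2 lay 13205 bases away. The background holds every promoter in the RefSeq table, where a gene can have several, so the sets are unlike. Of the 33 genes with a promoter there, 45.5% held ACGTG, against 19.6% of all 32851 promoters, and 69.7% held GCGTG, against 32.4%. Either core was present in 87.9%, against 43.8% of all. CACGTG was found in 9.09%, against 7.15%. TGGGAA, the core that Ikaros binds, was found in 21.2%, against 25.6%, and it stands in the Aldoc promoter above. Both cores hold CpG dinucleotides, and the promoters of these genes were richer in G and C, with a median of 61% against 52.7% for all promoters. A match says only that these letters stand in the window.

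Of the glucose transporters, Slc2a1 was higher and Slc2a6 lower in ZnF4-/- cells, and Slc2a6 and Slc2a8 were higher in ZnF1-/- cells, all against wild type. Slc2a1 encodes GLUT1, the widespread basal glucose transporter, and was the leading transporter in every library. It had 39.8 and 34.1 RPKM in ZnF4-/- cells, 21.3 and 20.3 in ZnF1-/- cells and 22.8 and 20.2 in wild type. Both ZnF4-/- libraries lay above the other 4, while ZnF1-/- and wild type libraries overlapped. The difference was 0.75 ± 0.07 in ZnF4-/- cells (adjusted p = 0.00342) and -0.04 ± 0.07 in ZnF1-/- cells (adjusted p = 0.664), both against wild type. The ZnF4-/- call was not kept without either wild type library (adjusted p as high as 0.0704), and the difference between the mutants, 0.80 ± 0.07, was called with each library left out. Slc2a6 encodes GLUT6, a transporter of intracellular membranes. It had 0.3 and 0.7 RPKM in ZnF4-/- cells, 3.5 and 4.1 in ZnF1-/- cells and 1.7 and 2.6 in wild type. No library of 1 genotype overlapped with those of another. The gene fell by 1.07 ± 0.11 on the log2 scale in ZnF4-/- cells (adjusted p = 0.00394) and was higher by 0.62 ± 0.11 in ZnF1-/- cells (adjusted p = 0.0105). The ZnF4-/- call was not kept without any 1 ZnF4-/- or wild type library (adjusted p as high as 0.0616). The ZnF1-/- call was not kept without the ZnF1-/- library of day 21 or either wild type library (adjusted p as high as 0.0979), under quantile scaling (0.26, adjusted p = 0.117) and without day in the fit (adjusted p = 0.0596), whereas the difference between the mutants (-1.69 ± 0.11) was called with each library left out. Slc2a8, for the intracellular GLUT8, had 2.8 and 3.7 RPKM in ZnF4-/- cells, 4.1 and 4.8 in ZnF1-/- cells and 2.5 and 2.8 in wild type. Its ZnF1-/- libraries were the highest, by 0.58 ± 0.10 over wild type (adjusted p = 0.00962), a call not kept without any 1 ZnF1-/- or wild type library (adjusted p as high as 0.103) and under quantile scaling (0.25, adjusted p = 0.0814). It was lower in ZnF4-/- cells than in ZnF1-/- cells (-0.36 ± 0.10, adjusted p = 0.0318), a call not kept without any 1 of the 6 libraries (adjusted p as high as 0.161), under quantile scaling (-0.12, adjusted p = 0.338) and without day in the fit (adjusted p = 0.0886). Slc2a3, for the high-affinity GLUT3, had 5.6 and 2.3 RPKM in ZnF4-/- cells, 3.4 and 2.9 in ZnF1-/- cells and 6.0 and 7.9 in wild type. Wild type was the highest on both days, but the standard error of 0.31 was wide and neither difference was called (adjusted p = 0.166 in ZnF4-/- cells and 0.0669 in ZnF1-/- cells).

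The hexokinases, which trap glucose in the cell, differed in which isoform was raised, with Hk2 higher in ZnF4-/- cells and Hk3 in ZnF1-/- cells. Hk2, the mitochondria-bound hexokinase of growing and tumour cells, had 18.0 and 16.3 RPKM in ZnF4-/- cells, 10.2 and 10.2 in ZnF1-/- cells and 12.2 and 12.2 in wild type. The 3 genotypes stood apart, with ZnF1-/- cells the lowest. Hk2 was higher by 0.46 ± 0.08 in ZnF4-/- cells than in wild type (adjusted p = 0.0185), a call not kept without any 1 of the 6 libraries (adjusted p as high as 0.193). Its -0.24 ± 0.08 in ZnF1-/- cells was not called (adjusted p = 0.0677), and the 0.69 ± 0.08 between the mutants was called with each library left out. Hk3, the hexokinase best known from myeloid cells, had 1.1 and 0.9 RPKM in ZnF4-/- cells, 7.0 and 10.9 in ZnF1-/- cells and 1.7 and 1.1 in wild type. Both ZnF1-/- libraries lay above the other 4, the libraries in which the macrophage markers were highest (1739.4 and 1656 RPKM in sum), and the part of those cells in the result was not tested. The difference was 2.03 ± 0.23 in ZnF1-/- cells (adjusted p = 0.0028) and -0.25 ± 0.23 in ZnF4-/- cells (adjusted p = 0.52), and the first was called with each library left out, as was the -2.29 ± 0.23 of ZnF4-/- cells against ZnF1-/- cells. Hk1, the constitutive hexokinase, had 20.7 and 22.3 RPKM in ZnF4-/- cells, 22.3 and 19.4 in ZnF1-/- cells and 28.4 and 23.8 in wild type. Wild type was the highest, but neither mutant was called (adjusted p = 0.156 and 0.0703 for ZnF4-/- and ZnF1-/- cells). Gpi1, glucose phosphate isomerase, had 43.0 and 41.6 RPKM in ZnF4-/- cells, 27.2 and 36.2 in ZnF1-/- cells and 30.9 and 36.0 in wild type. It was called only between the mutants (0.42 ± 0.12, adjusted p = 0.0351), and that call was lost in every fit with a library left out except that without the ZnF4-/- library of day 28 (adjusted p as high as 0.236), and without day in the fit (adjusted p = 0.0696).

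Phosphofructokinase, the committing step, had both of its abundant isoforms highest in ZnF4-/- cells, intermediate in wild type and lowest in ZnF1-/- cells. Pfkl, the liver-type isoform, had 67.1 and 61.3 RPKM in ZnF4-/- cells, 22.8 and 22.1 in ZnF1-/- cells and 31.5 and 31.4 in wild type. The genotypes were far apart and the days close together. Pfkl was higher by 1.01 ± 0.07 in ZnF4-/- cells (adjusted p = 0.00144), which is 2.01 times on the RPKM + 1 scale, and this was called with each library left out. It fell by 0.47 ± 0.07 in ZnF1-/- cells (adjusted p = 0.00609), a call not kept without any 1 ZnF1-/- or wild type library (adjusted p as high as 0.0940). Pfkp, the platelet-type isoform, had 49.4 and 49.6 RPKM in ZnF4-/- cells, 16.3 and 19.9 in ZnF1-/- cells and 28.1 and 30.3 in wild type. The libraries again did not overlap between genotypes. The differences were 0.74 ± 0.09 in ZnF4-/- cells (adjusted p = 0.0058) and -0.67 ± 0.09 in ZnF1-/- cells (adjusted p = 0.00416). The first was not kept without any 1 ZnF4-/- or wild type library (adjusted p as high as 0.0946) and the second without either wild type library (adjusted p as high as 0.0675). Between the mutants both isoforms were called with each library left out, Pfkl at 1.47 ± 0.07 and Pfkp at 1.41 ± 0.09. The muscle-type Pfkm did not share that order, with 11.1 and 10.9 RPKM in ZnF4-/- cells, 11.4 and 11.7 in ZnF1-/- cells and 7.0 and 8.3 in wild type. Both mutants were above wild type, by 0.48 ± 0.09 and 0.54 ± 0.09 (adjusted p = 0.0262 and 0.0101 for ZnF4-/- and ZnF1-/- cells). The ZnF4-/- call was not kept without any 1 of the 6 libraries (adjusted p as high as 0.223) and the ZnF1-/- call without any 1 ZnF1-/- or wild type library (adjusted p as high as 0.108).

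The 6-phosphofructo-2-kinases make and break fructose 2,6-bisphosphate, the activator of phosphofructokinase. Pfkfb4 had 2.5 and 2.7 RPKM in ZnF4-/- cells, 4.4 and 4.0 in ZnF1-/- cells and 1.5 and 1.5 in wild type. Wild type was the lowest and ZnF1-/- cells the highest, with no overlap. The gene was higher by 0.53 ± 0.10 in ZnF4-/- cells (adjusted p = 0.024), a call not kept without any 1 of the 6 libraries (adjusted p as high as 0.183). Its 1.06 ± 0.10 in ZnF1-/- cells (adjusted p = 0.00174) was called with each library left out. The -0.53 ± 0.10 of ZnF4-/- cells against ZnF1-/- cells (adjusted p = 0.0104) was not kept without either library of day 21 from those genotypes (adjusted p as high as 0.0835) and under quantile scaling (-0.27, adjusted p = 0.0909). Pfkfb3, the strongly kinase-active form of proliferating cells, had 19.9 and 17.8 RPKM in ZnF4-/- cells, 23.5 and 24.8 in ZnF1-/- cells and 26.2 and 24.1 in wild type. Only the ZnF4-/- libraries stood apart, below the other 4. Pfkfb3 fell by 0.40 ± 0.08 in ZnF4-/- cells (adjusted p = 0.0327), which was not kept without any 1 of the 6 libraries (adjusted p as high as 0.268) and with the longest transcript row (-0.15, adjusted p = 0.421). Against ZnF1-/- cells it fell by 0.34 ± 0.08 (adjusted p = 0.0241), lost in the same way (adjusted p as high as 0.177 without a library and 0.318 with the longest row). Pfkfb2 lay between 1.9 and 2.4 RPKM in all libraries and was called in no comparison.

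Aldolase and triose phosphate isomerase, which split fructose 1,6-bisphosphate and interconvert its products, were all higher in ZnF4-/- cells than in either other genotype. Aldoa, the main aldolase, had 235.1 and 234.7 RPKM in ZnF4-/- cells, 102.0 and 117.4 in ZnF1-/- cells and 112.7 and 133.5 in wild type. The ZnF1-/- and wild type libraries overlapped. The difference from wild type was 0.93 ± 0.09 in ZnF4-/- cells (adjusted p = 0.00336), not kept without either wild type library (adjusted p as high as 0.0743), and -0.16 ± 0.09 in ZnF1-/- cells (adjusted p = 0.203). A second Aldoa transcript row, not tested, had 27.1 and 41.4 RPKM in ZnF4-/- cells, 12.9 and 24.0 in ZnF1-/- cells and 15.8 and 30.4 in wild type, and was higher at day 28 than at day 21 in each genotype. Aldoc, the aldolase best known from brain, had 42.2 and 29.1 RPKM in ZnF4-/- cells, 14.8 and 15.1 in ZnF1-/- cells and 7.1 and 5.7 in wild type. Both mutants were above wild type without overlap. The differences were 2.29 ± 0.14 in ZnF4-/- cells (adjusted p = 0.00114), called with each library left out, and 1.11 ± 0.14 in ZnF1-/- cells (adjusted p = 0.00359), not kept without either wild type library (adjusted p as high as 0.0631). Tpi1 had 148.6 and 124.6 RPKM in ZnF4-/- cells, 55.3 and 53.3 in ZnF1-/- cells and 87.6 and 95.3 in wild type. It was highest in ZnF4-/- cells and lowest in ZnF1-/- cells, without overlap. It was higher by 0.57 ± 0.10 in ZnF4-/- cells (adjusted p = 0.0216) and fell by 0.74 ± 0.10 in ZnF1-/- cells (adjusted p = 0.0053). The first call was not kept without any 1 of the 6 libraries (adjusted p as high as 0.203), the second without either ZnF1-/- library or the day 28 wild type library (adjusted p as high as 0.0720). Between the mutants, Aldoa (1.10 ± 0.09), Aldoc (1.18 ± 0.14) and Tpi1 (1.31 ± 0.10) were called with each library left out.

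In the lower steps of glycolysis, 3 of the 5 tested genes were higher in ZnF4-/- cells than in wild type and 0 lower. In ZnF1-/- cells 2 were higher and 1 lower, but Eno2, among the higher, had its difference fixed by the filter. Of all tested genes, 18.2% were called in ZnF4-/- cells and 38.1% in ZnF1-/- cells. Pkm2, the pyruvate kinase M gene, which makes pyruvate and ATP, had 132.8 and 130.5 RPKM in ZnF4-/- cells, 62.3 and 70.0 in ZnF1-/- cells and 86.2 and 92.9 in wild type. No libraries overlapped between genotypes. Pkm2 was higher by 0.55 ± 0.08 in ZnF4-/- cells (adjusted p = 0.00988) and fell by 0.43 ± 0.08 in ZnF1-/- cells (adjusted p = 0.0114). The 2 calls were not kept without any 1 library of the pair compared (adjusted p as high as 0.146 and 0.134), whereas the 0.98 ± 0.08 between the mutants was called with each library left out. Pgk1, phosphoglycerate kinase, had 13.6 and 11.2 RPKM in ZnF4-/- cells, 6.0 and 3.6 in ZnF1-/- cells and 7.4 and 5.2 in wild type. The ZnF4-/- libraries were the highest, by 0.89 ± 0.11 over wild type (adjusted p = 0.00688), which was not kept without the day 28 ZnF4-/- library or any 1 wild type library (adjusted p as high as 0.102) and without day in the fit (adjusted p = 0.0673). Between the mutants its 1.23 ± 0.11 was called with each library left out. Eno3, the muscle enolase, had 6.5 and 6.4 RPKM in ZnF4-/- cells, 3.8 and 4.9 in ZnF1-/- cells and 2.7 and 3.2 in wild type. Both mutants were above wild type, by 0.92 ± 0.11 (adjusted p = 0.00633) and 0.43 ± 0.11 (adjusted p = 0.0331) for ZnF4-/- and ZnF1-/- cells. Neither call was kept without any 1 library of its pair (adjusted p as high as 0.0960 and 0.205), and the ZnF1-/- call also under quantile scaling (0.11, adjusted p = 0.44), with the longest transcript row (0.22, adjusted p = 0.184) and without day in the fit (adjusted p = 0.0548). The 0.49 ± 0.11 between the mutants (adjusted p = 0.0194) was lost in every left-out fit except that without the ZnF4-/- library of day 28. It was also lost with the longest transcript row (0.29, adjusted p = 0.0897) and without the filter on low values (adjusted p = 0.0516). Eno2, the neuronal enolase, had 0.1 and 0.1 RPKM in ZnF4-/- cells, 1.3 and 1.2 in ZnF1-/- cells and 0.2 and 0.1 in wild type. The gene passed the filter through the ZnF1-/- libraries alone, so it had to differ, and no test is given for it.

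Gapdh, Pgam1 and Eno1, enzymes of the lower pathway that are abundant in most cells, were listed near 0. Gapdh had 1.3 and 1.0 RPKM in ZnF4-/- cells, 0.8 and 0.9 in ZnF1-/- cells and 0.8 and 0.8 in wild type. It passed the filter through the ZnF4-/- libraries alone and was not called. Under quantile scaling its difference in ZnF1-/- cells turned to -0.50 (adjusted p = 0.0211). Pgam1 lay between 0.1 and 0.3 RPKM and Eno1 between 0 and 0.1 (listed at 0 in 5 libraries), so neither was tested. The 3 genes share much of their sequence with other genes. In GENCODE M21 transcripts on GRCm38, 84.0% of the 32-base words of Gapdh also occurred in other genes, 314 of them pseudogenes. The shares were 77.0% for Eno1, 68.3% for Pgk1 and 42.1% for Pgam1. The same held in part for Pkm2 (47.3%), Pdhb (41.2%), Ldhb (40.5%), Ldha (33.2%), Aldoa (32.9%), Gpi1 (31.7%) and Tpi1 (16.8%). The other 23 genes shared at most 10%. How reads that match several places were counted was not given in the sources used here, so the levels of these 11 genes are uncertain, and what this did to their values was not tested.

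**Figure D3:**
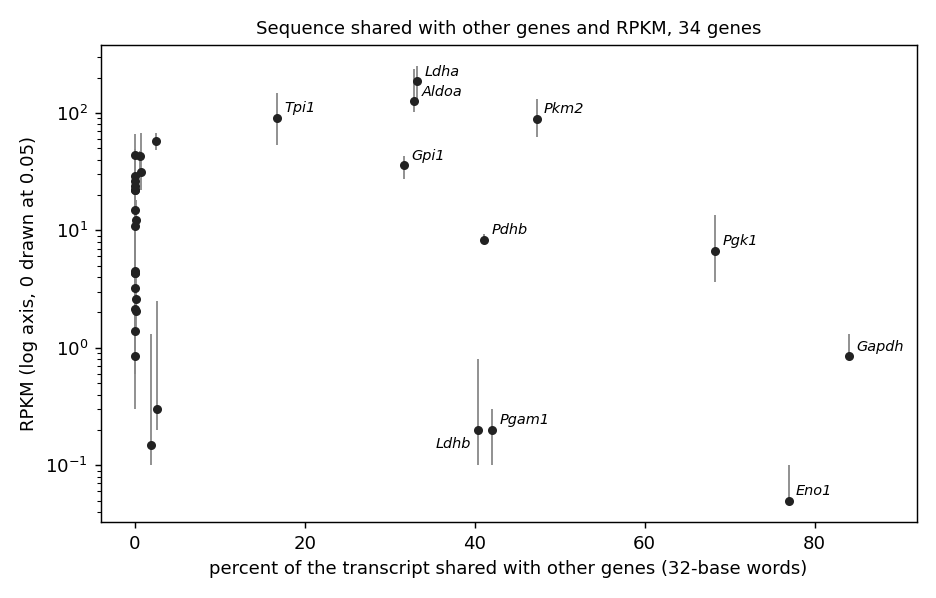
Percent of each transcript whose 32-base words also occur in other genes (horizontal axis) against RPKM (vertical axis, log scale, values of 0 drawn at 0.05). Points are medians and bars the lowest and highest of 6 libraries; the 3 genes above 50% shared reached at most 13.6 RPKM, while Ldha, Aldoa and Pkm2 were abundant at 33.2%, 32.9% and 47.3%.

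Lactate production and export split into genes that moved differently. Ldha, the lactate dehydrogenase subunit that favours lactate, had 249.8 and 243.1 RPKM in ZnF4-/- cells, 122.1 and 127.4 in ZnF1-/- cells and 178.0 and 194.7 in wild type. The 3 genotypes did not overlap. It was higher by 0.40 ± 0.08 in ZnF4-/- cells (adjusted p = 0.0272), a call not kept without any 1 of the 6 libraries (adjusted p as high as 0.277). It fell by 0.57 ± 0.08 in ZnF1-/- cells (adjusted p = 0.00517), a call not kept without any 1 ZnF1-/- or wild type library (adjusted p as high as 0.0938). The 0.98 ± 0.08 between the mutants was called with each library left out. Slc16a3, the monocarboxylate transporter MCT4 of lactate-exporting cells, had 20.2 and 10.8 RPKM in ZnF4-/- cells, 4.3 and 4.0 in ZnF1-/- cells and 4.3 and 3.6 in wild type. The ZnF4-/- libraries were the highest on both days, and ZnF1-/- and wild type libraries overlapped. Its 1.68 ± 0.20 over wild type (adjusted p = 0.00589) was not kept without either wild type library (adjusted p as high as 0.0966). Its 1.62 ± 0.20 over ZnF1-/- cells was called with each library left out. Slc16a1, the widespread transporter MCT1, had 38.8 and 37.9 RPKM in ZnF4-/- cells, 37.9 and 49.3 in ZnF1-/- cells and 63.7 and 65.7 in wild type. Both mutants were below wild type and overlapped with each other. It fell by 0.74 ± 0.11 in ZnF4-/- cells (adjusted p = 0.0123), a call not kept without any 1 library of the pair (adjusted p as high as 0.161). In ZnF1-/- cells it fell by 0.57 ± 0.11 (adjusted p = 0.0154), not kept without the ZnF1-/- library of day 21 or either wild type library (adjusted p as high as 0.156). Slc16a1 was the only gene called lower in both mutants, and its promoter is printed above. Ldhb, the subunit that favours pyruvate, had 0.1 and 0.2 RPKM in ZnF4-/- cells, 0.8 and 0.6 in ZnF1-/- cells and 0.2 and 0.2 in wild type, and was not tested.

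The pyruvate dehydrogenase kinases, which inhibit the pyruvate dehydrogenase complex and so the conversion of pyruvate to acetyl-CoA, were called by limma at 0 of 4 genes in ZnF4-/- cells against wild type (1 at an unadjusted p below 0.05), beside 18.2% of all tested genes. In ZnF1-/- cells 3 of 4 were called, among them Pdk4 and Pdk2, beside 38.1% of all tested genes. Pdk4 had 0.2 and 0.2 RPKM in ZnF4-/- cells, 2.3 and 2.5 in ZnF1-/- cells and 0.4 and 0.2 in wild type. Only the ZnF1-/- libraries reached 1 RPKM, so Pdk4 passed the filter through them and had to differ, and no test is given for it. Pdk2 had 0.6 and 0.6 RPKM in ZnF4-/- cells, 3.3 and 2.6 in ZnF1-/- cells and 1.1 and 0.6 in wild type. The ZnF1-/- libraries were again the highest, and outside them only the day 21 wild type library reached 1 RPKM. Pdk2 thus passed the filter only with the ZnF1-/- libraries, which favoured a difference, and no test is given for it. It differed by 1.10 ± 0.13 in ZnF1-/- cells against wild type, and by -1.30 ± 0.13 in ZnF4-/- cells against ZnF1-/- cells. Pdk1, the most abundant of the kinases and a known target of hypoxia-inducible factor, had 47.1 and 41.8 RPKM in ZnF4-/- cells, 32.2 and 34.6 in ZnF1-/- cells and 44.4 and 45.1 in wild type. The ZnF4-/- and wild type libraries overlapped, and the ZnF1-/- libraries lay below both. Pdk1 fell by 0.41 ± 0.09 in ZnF1-/- cells (adjusted p = 0.0187), not kept without any 1 ZnF1-/- or wild type library (adjusted p as high as 0.170). Between the mutants its 0.40 ± 0.09 (adjusted p = 0.0165) was lost in every left-out fit except that without the ZnF4-/- library of day 28 (adjusted p as high as 0.145). Pdk3 lay between 22.1 and 30.8 RPKM and was called in no comparison. Of the dehydrogenase itself, Pdha1 had 68.2 and 67.9 RPKM in ZnF4-/- cells, 48.2 and 54.1 in ZnF1-/- cells and 56.1 and 60.2 in wild type. It was called only between the mutants (0.41 ± 0.07, adjusted p = 0.00877), a call not kept without either ZnF1-/- library (adjusted p as high as 0.0970). Pdhb lay between 7.6 and 9.4 RPKM and was called in no comparison.

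Within 9 families of isoenzymes or transporters, the shares of the members differed between genotypes, given here as a description. Hk3 made up 2.76% and 2.28% of hexokinase RPKM in ZnF4-/- cells, 17.7% and 26.9% in ZnF1-/- cells and 4.02% and 2.96% in wild type. Hk2 made up 45.2% and 41.3% in ZnF4-/- cells, 25.8% and 25.2% in ZnF1-/- cells and 28.8% and 32.9% in wild type. ZnF1-/- cells thus had the largest share of Hk3 and ZnF4-/- cells that of Hk2. Slc2a1 held 82.1% and 83.6% of the RPKM of the 4 transporters in ZnF4-/- cells, 65.9% and 63.2% in ZnF1-/- cells and 69.1% and 60.3% in wild type. Slc16a3 held 34.2% and 22.2% of the monocarboxylate transporter RPKM in ZnF4-/- cells, 10.2% and 7.50% in ZnF1-/- cells and 6.32% and 5.19% in wild type. Pfkm held 8.70% and 8.95% of phosphofructokinase RPKM in ZnF4-/- cells, 22.6% and 21.8% in ZnF1-/- cells and 10.5% and 11.9% in wild type. Each of these shares set 1 genotype apart from the other two on both days. In a grouping made after the values were seen, the 9 genes with the highest wild type level in their family were set beside the 15 other tested ones. Of the 9, 5 were higher and 2 lower in ZnF4-/- cells, and 1 higher and 4 lower in ZnF1-/- cells. The 1 higher in ZnF1-/- cells is Eno3, which leads the enolases while Eno1, whose level is uncertain, was listed near 0. Of the 15, 6 were higher and 1 lower in ZnF4-/- cells, and 9 higher and 1 lower in ZnF1-/- cells. Those higher in ZnF1-/- cells include Eno2 and Pdk4, whose difference the filter fixed, and Pdk2, which needed the ZnF1-/- libraries to pass it. Of all tested genes, 18.2% were called in ZnF4-/- cells and 38.1% in ZnF1-/- cells. The groups were set by the wild type level, which also enters each difference, so the counts cannot show that leading genes behave differently. The difference between the groupings was not tested.

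**Figure D4:**
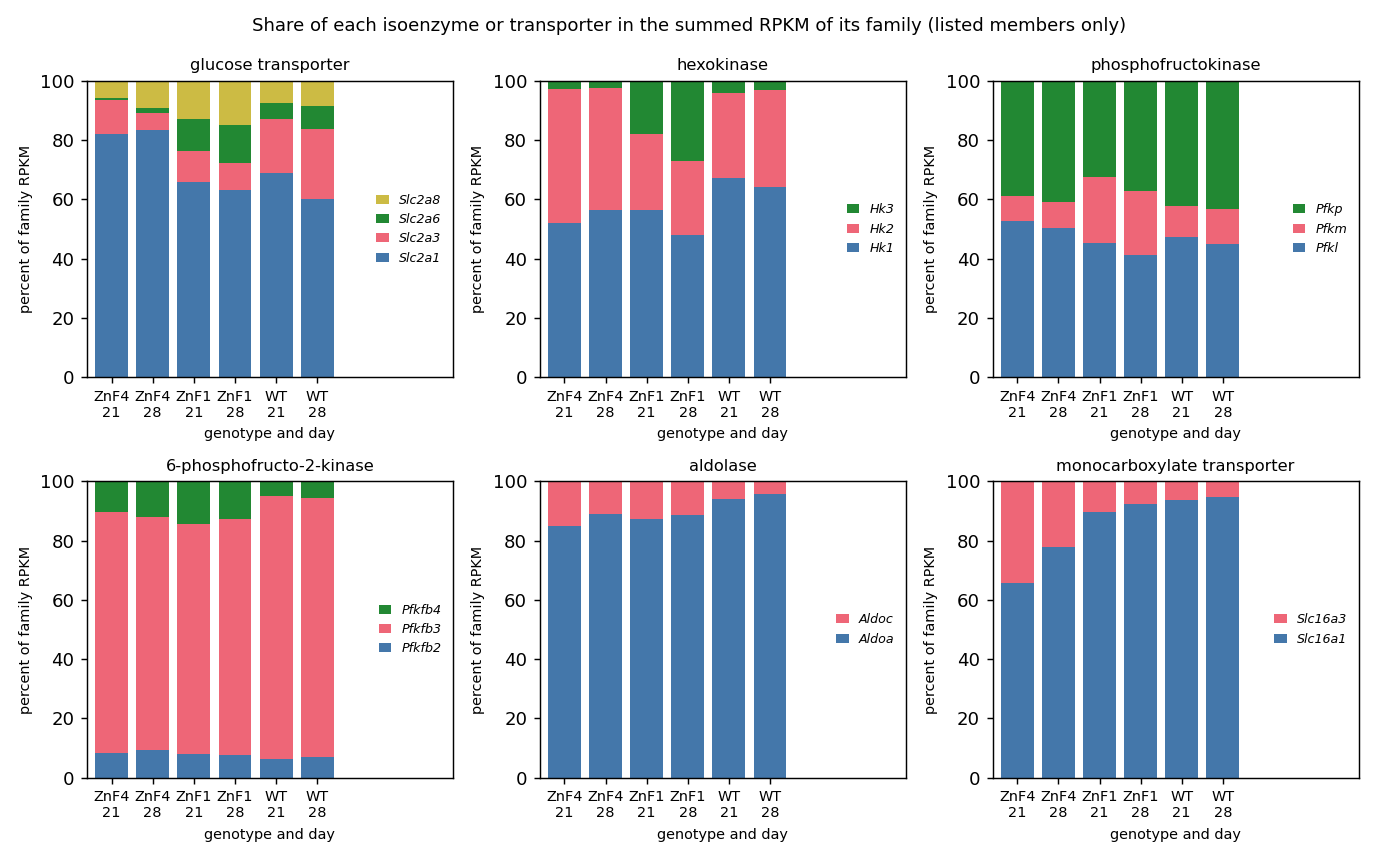
Share of each gene in the summed RPKM of its family (vertical axis, percent) for 6 families, with bars for ZnF4-/- cells (ZnF4), ZnF1-/- cells (ZnF1) and wild type (WT) at day 21 and day 28. Hk3 takes 17.7% and 26.9% of the hexokinases in ZnF1-/- cells, and Slc16a3 34.2% and 22.2% of the monocarboxylate transporters in ZnF4-/- cells.

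The neighbouring pathways were read from lists of genes, with called counts against wild type. Of all tested genes, 10.9% were called higher and 7.32% lower in ZnF4-/- cells. In ZnF1-/- cells these shares were 22.9% and 15.2%. Serine synthesis, which branches from glycolysis, had 3 of 5 tested genes higher and 0 lower in ZnF4-/- cells (median 0.50), and 0 higher and 4 lower in ZnF1-/- cells (median -0.39). Shmt2, the mitochondrial serine hydroxymethyltransferase, had 194.3 and 263.5 RPKM in ZnF4-/- cells, 96.3 and 107.9 in ZnF1-/- cells and 128.5 and 153.9 in wild type. Psat1 and Psph, of the serine branch, took the same order of genotypes. None of these calls against wild type was kept with every library left out (adjusted p as high as 0.130 in ZnF4-/- and 0.170 in ZnF1-/- cells), while between the mutants those of Psat1 (0.84 ± 0.07), Psph and Shmt2 (1.14 ± 0.09) were. In the TCA cycle limma called 0 of 16 genes in ZnF4-/- cells (2 at an unadjusted p below 0.05) and 7, all lower, in ZnF1-/- cells (median -0.27), all 7 lost when some library was left out (adjusted p as high as 0.266). The pentose phosphate pathway had 1 of 8 lower and 0 higher in ZnF4-/- cells, and 3 higher (Taldo1, G6pdx and Pgd) and 1 lower (Rpia) in ZnF1-/- cells, with none kept in every left-out fit (adjusted p as high as 0.261 and 0.228). Pygl, a glycogen phosphorylase, had 4.8 and 1.8 RPKM in ZnF4-/- cells, 25.2 and 21.4 in ZnF1-/- cells and 3.8 and 1.8 in wild type. Its ZnF1-/- libraries were far above the rest, by 2.72 ± 0.20 over wild type, which was called with each library left out. Pck2, which makes phosphoenolpyruvate in mitochondria, was higher by 0.46 ± 0.08 in ZnF4-/- cells, not kept without any 1 ZnF4-/- or wild type library (adjusted p as high as 0.176). In ZnF1-/- cells Pck2 fell by 0.72 ± 0.08, called with each library left out. Of 12 tested genes for pyruvate entry and shuttles, 1 was higher in ZnF4-/- cells and 3 lower in ZnF1-/- cells, and each of these calls was lost in some left-out fit (adjusted p as high as 0.116 and 0.318). Further isoenzymes and transporters gave 2 higher of 11 tested in ZnF4-/- cells, and 3 higher and 1 lower in ZnF1-/- cells, of which Slc16a7 (1.10 ± 0.10) and Galm (1.33 ± 0.12), both in ZnF1-/- cells, were called with each library left out.

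Targets of the hypoxia response outside glycolysis were called higher at 9 of 22 genes and lower at 2 in ZnF4-/- cells (median 0.39). In ZnF1-/- cells 4 were called higher and 1 lower (median 0.02). Of all tested genes, 18.2% were called in ZnF4-/- cells and 38.1% in ZnF1-/- cells. Ndrg1, a stress-response gene, had 45.8 and 43.6 RPKM in ZnF4-/- cells, 2.6 and 2.9 in ZnF1-/- cells and 3.1 and 2.0 in wild type. Bhlhe40, a repressor of transcription, had 14.3 and 17.7 RPKM in ZnF4-/- cells, 5.8 and 9.4 in ZnF1-/- cells and 4.6 and 4.7 in wild type. Both were highest in the ZnF4-/- libraries. The difference from wild type in ZnF4-/- cells was 3.70 ± 0.15 for Ndrg1, called with each library left out, and 1.58 ± 0.15 for Bhlhe40, not kept without either ZnF4-/- library or the day 28 wild type library (adjusted p as high as 0.0708). Stc2, a secreted glycoprotein, and P4ha2, a collagen prolyl hydroxylase, were higher in ZnF4-/- cells by 2.15 ± 0.21 and 1.39 ± 0.17. Of the 11 calls in ZnF4-/- cells, Ndrg1 was the only one made in every left-out fit (adjusted p as high as 0.339 for the others). Hmox1, haem oxygenase, which macrophages also express, had 14.2 and 16 RPKM in ZnF4-/- cells, 64.9 and 89.8 in ZnF1-/- cells and 16.5 and 12.7 in wild type. Its ZnF1-/- libraries were the highest, by 2.32 ± 0.19 over wild type, called with each library left out.

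Of 33 tested regulators of glucose uptake and glycolysis, 4 were higher and 5 lower in ZnF4-/- cells, beside 18.2% of all tested genes called. In ZnF1-/- cells 4 were higher and 3 lower, beside 38.1% of all tested genes called. Hif1a, the oxygen-regulated factor, had 38.3 and 37.2 RPKM in ZnF4-/- cells, 31.6 and 30.3 in ZnF1-/- cells and 32.2 and 30.2 in wild type. Its 0.27 ± 0.06 in ZnF4-/- cells (adjusted p = 0.0453) was not kept without any 1 of the 6 libraries (adjusted p as high as 0.297). Egln3, a prolyl hydroxylase that marks hypoxia-inducible factors for degradation, had 9.2 and 11.1 RPKM in ZnF4-/- cells, 0.9 and 1.2 in ZnF1-/- cells and 7.8 and 10.8 in wild type. The ZnF1-/- libraries were far below the rest, with a difference from wild type of -2.32 ± 0.10 that was called with each library left out. Epas1, also on the list, was higher by 1.48 in ZnF1-/- cells than in wild type (adjusted p = 0.00118), called with each library left out. Myc had 206.2 and 302.4 RPKM in ZnF4-/- cells, 141.8 and 145.2 in ZnF1-/- cells and 172.7 and 175.9 in wild type. The order was that of Pfkl and Ldha, but neither difference from wild type was called (adjusted p = 0.0752 and 0.195 for ZnF4-/- and ZnF1-/- cells). Between the mutants Myc was called higher in ZnF4-/- cells, a call lost when some library was left out. Mycn had 9.2 and 15.3 RPKM in ZnF4-/- cells, 30.0 and 39.8 in ZnF1-/- cells and 28.8 and 41.6 in wild type, and Mtor, the growth kinase, had 30.3 and 28.7 RPKM in ZnF4-/- cells, 76.7 and 77.3 in ZnF1-/- cells and 60.7 and 58.8 in wild type. Both were lowest in ZnF4-/- cells, with differences from wild type of -1.47 ± 0.09 for Mycn and -0.99 ± 0.07 for Mtor, and both calls were made with each library left out. Txnip and Arrdc4, glucose-induced arrestins that restrain uptake, were called higher in ZnF1-/- cells. Txnip had 74.5 and 58.5 RPKM in ZnF4-/- cells, 92 and 82.4 in ZnF1-/- cells and 64.3 and 67.9 in wild type, a difference of 0.39 ± 0.11 in ZnF1-/- cells that was not kept without any 1 ZnF1-/- or wild type library (adjusted p as high as 0.298). Arrdc4 had 0.5 and 0.7 RPKM in ZnF4-/- cells, 6.1 and 5.1 in ZnF1-/- cells and 1.2 and 0.6 in wild type. Its difference from wild type in ZnF1-/- cells was 1.81 ± 0.17. Outside the ZnF1-/- libraries only that of wild type at day 21 reached 1 RPKM. Arrdc4 thus passed the filter only with the ZnF1-/- libraries, which favoured a difference, and no test is given for it.

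**Figure D5:**
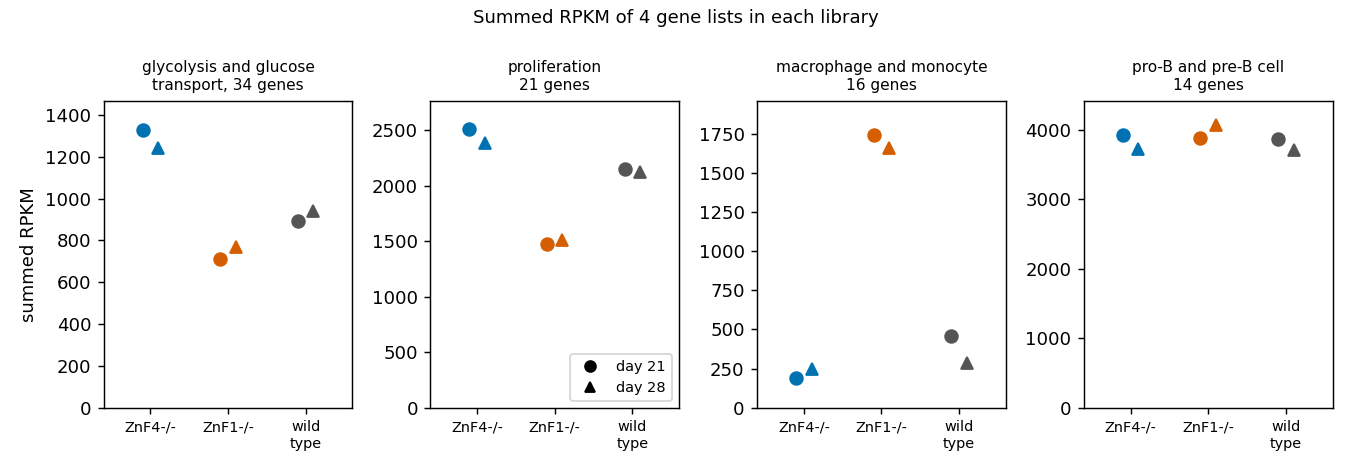
Summed RPKM (vertical axis, from 0) of the 34 genes and of 3 other lists in each library, by genotype, with circles for day 21 and triangles for day 28. The 34 genes and the proliferation genes are both lowest in ZnF1-/- cells (710.1 and 767.4 RPKM for the 34) and highest in ZnF4-/- cells, the macrophage sum is highest in ZnF1-/- cells (1739.4 and 1656), and the pro-B and pre-B sum lies between 3713.1 and 4075.4 throughout.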

How the data were processed

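Poly(A) RNA was enriched and sequenced on the Illumina platform as fragmented double-stranded cDNA, per the labels' protocols, which name no strand-marking step. TopHat, bedtools and the mouse build mm9 are named in the submitters' processing notes, without versions or roles. The authors deposited RPKM values rounded to 1 decimal for 26531 RefSeq transcript rows, with a transcript length per row, also deposited by the authors in bases. The sources used here do not give the handling of multiply matching reads, read numbers or the annotation release. The depth is unknown, so no counting interval can be given. A stray entry without a gene name (1) was left out.

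For each symbol the row with the highest mean was used. Genes at 1 RPKM or more in at least 2 of 6 libraries were tested as log2(RPKM + 1), with a pseudocount of 1, in limma 3.58.1 (R 4.3.3) with genotype and day as additive terms, all 6 libraries, empirical Bayes moderation with a mean-variance trend, and Benjamini-Hochberg adjustment over 11379 genes. Residual degrees of freedom were 2, with a prior of 3.22. Day is the number the genotypes share in the labels and was kept as a block. The change between the days, gene by gene, was correlated between pairs of genotypes (0.433, 0.249 and 0.226), and genes are not independent replicates. No pair of libraries had over 5.61% identical values.

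The members and the gene lists were chosen with earlier results of these data known. Genes called in a genotype comparison are given in every library, and of each other list up to 4 called genes per comparison are named, besides Hif1a, Myc, Txnip, Egln3, Ndrg1 and Ikzf1. Markers of granulocytes summed to at most 2.5 RPKM, of dendritic cells to at most 6.5, of T and natural killer cells to at most 47.1 and of erythroid cells and megakaryocytes to at most 80.4. Alternatives covered the pseudocount, the filter, scaling, the choice of row, the trend, the block and each library left out. The files' build differs from the reference, so coordinates are RefSeq's on GRCm38.p6. Figures were drawn with matplotlib.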

Additional observations from a re-analysis of the deposited data

Results flagged for a closer look

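Against the same wild type libraries, 6 genes were called in opposite directions in the mutants. Of all tested genes, 1.41% were called higher in ZnF4-/- cells and lower in ZnF1-/- cells, and 2.07% the reverse. Of the 12 calls against wild type behind the 6 genes, 1 was made with each library left out in turn, that of Pfkl in ZnF4-/- cells. The difference between the mutants comes from the same limma fit. Since the 6 genes were picked for opposite calls, it had to be large, and its p-values are not separate support. Slc2a6 was lower in ZnF4-/- cells and higher in ZnF1-/- cells, with a difference between them of -1.69 on the log2 scale (adjusted p = 0.000521). The other 5 were higher in ZnF4-/- cells and lower in ZnF1-/- cells. The difference between the mutants was 1.47 for Pfkl (adjusted p = 0.000376), 1.41 for Pfkp (adjusted p = 0.000498), 1.31 for Tpi1 (adjusted p = 0.000784), 0.98 for Pkm2 (adjusted p = 0.000776) and 0.98 for Ldha (adjusted p = 0.000831). These 6 differences between the mutants were called with each library left out in turn, which is not separate support either. The proliferation sum was likewise highest in ZnF4-/- cells and lowest in ZnF1-/- cells, and the macrophage sum lowest in ZnF4-/- cells and highest in ZnF1-/- cells. Their part in the difference was not tested.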

How the results depend on the processing

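The limits are few libraries, unknown depth, and 2 days per genotype that may come from 1 culture. Without the filter on low values, 1137 genes and 10 of the glycolysis and transport genes were called in ZnF4-/- cells against wild type, in place of 2076 and 17. Requiring a mean RPKM of at least 4 left 22 tested and 10 called in ZnF1-/- cells, 3 higher and 7 lower, since fewer low genes were tested, beside 2956 of all 8604 genes (1406 higher and 1550 lower). For ZnF4-/- against ZnF1-/- cells it gave 15 higher and 1 lower, beside 2257 higher and 1603 lower of all genes. Quantile scaling gave 2047 genes higher and 2913 lower in ZnF1-/- cells, and 3431 higher and 2359 lower between ZnF4-/- and ZnF1-/- cells, and reversed Gapdh in ZnF1-/- cells (-0.50). Median ratio scaling moved the gene counts the other way, to 2781 higher and 1383 lower in ZnF1-/- cells and 2038 higher and 2941 lower between ZnF4-/- and ZnF1-/- cells. The cause was not tested. Quantile scaling also brought Slc2a3, Hk2 and Pgk1 to a call as lower in ZnF1-/- cells. Leaving out each library in turn gave 346 to 1230 genes and 2 to 11 members in ZnF4-/- cells, 1398 to 4475 genes and 5 to 19 members in ZnF1-/- cells, and 2526 to 3896 genes and 16 to 21 members between the mutants. With no replicate block, the fit without day called 16 members and 1687 genes in ZnF4-/- cells, 15 and 3653 in ZnF1-/- cells, and 21 and 4632 between the mutants. Pseudocounts of 0.1 and 0.5, median ratio scaling and the fit without the trend changed none of the member counts.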
